A study of Rattus norvegicus with 8 samples.

Results

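Hepatic uptake transporters are the membrane carriers that move bile acids, hormones, drugs and other organic ions from blood into liver cells, and 9 of their genes are described here, out of 18392 genes named on the array: Slc10a1, Slco1a1, Slco1a4, Slco1b3, Slco2b1, Slco2a1, Slc22a7, Slc22a8 and Slc47a1. The members are the genes of that list for which the array holds a probe that is not a control, and each probe was kept apart. By the symbol on the array 7 members were found. The other 2 were found through their RefSeq transcripts: Slco1a4 stands on the array under the older symbol Slco1a2, and Slco1b3 is a RefSeq synonym of Slco1b2, the symbol that both the array and the current annotation use. In all 10 probes represent the 9 genes, with 2 for Slco1b3 and 1 for each of the others.

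Liver RNA of 8 male Fisher 344 rats aged 18 weeks was hybridised to Agilent rat expression arrays in 1 colour (Cy3), with 1 array per animal. The 4 rats of the furan group were gavaged with furan, a liver carcinogen of rodents, for 90 days, with 5 dosing days in each week and a daily dose of 8 mg per kg of body weight. The other 4 rats were controls, and what they received by gavage, if anything, is not stated in the labels. For both groups the livers were taken 24 hours after the last treatment. The design asks which liver transcripts differ at the end of furan treatment. Each level below is the log2 processed signal of a probe minus the log2 75th percentile of the non-control spots of its array, so that 0 is that percentile, and a change is the mean furan level minus the mean control level. Levels of different probes are not comparable, because probes bind their targets with different strength.

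The 75th percentile itself lay between 1256 and 1596 intensity units on the furan arrays and between 827 and 1057 on the control arrays. Slide 1 carried the first 2 arrays of each group and slide 2 the other 2, per the file headers. Replicate spots scattered most on furan 1 and control 2, with a median coefficient of variation of 12.8% and 9.38%. Control 1 stood apart on some endothelial markers, which were picked out after their values were seen. Lyve1 is a receptor of sinusoidal endothelium. Its levels were -0.58, -0.79, -0.39 and -0.57 in furan livers and -3.51, 0.22, -0.08 and 0.32 in control livers. For other endothelial markers, picked in the same way, control 1 was not the lowest control. Robo4 had -1.55 in control 1 and -1.82, -1.88 and -1.94 in controls 2 to 4. Cdh5 had -2.33 in control 1 and -2.28, -2.48 and -2.45 in controls 2 to 4. Without control 1 the 9 transporter probes had changes from -1.64 to -0.47, and 8 of them were called lower (limma), all but Slc22a7. Of 20268 probes tested, 3429 (16.9%) were higher and 3423 (16.9%) lower after furan at an adjusted p below 0.05 (limma), 33.8% in either direction, and the median change of all of them was -0.03. The share of higher probes among the called ones was close to that of lower ones here, but it was 30.2% with normexp background correction, 83.5% relative to hepatocyte markers and 94.7% without scaling between arrays. The tissue label was checked against 10 genes that hepatocytes express, and all 12 of their probes were well above background on every array. Alb, which encodes albumin, had a mean level of 7.60 in furan livers and 7.96 in control livers.

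Hepatocytes take up solutes at the membrane that faces the sinusoid, modify them inside the cell and export the products into bile or back into blood. Bile acids enter mainly with sodium through the carrier encoded by Slc10a1, while organic anion transporting polypeptides, encoded by Slco genes, work without sodium and accept bile acids, bilirubin conjugates, steroid and thyroid hormones and many drugs. The Slc22 carriers exchange organic anions such as urate, prostaglandins and dicarboxylates. Slc47a1 is the exception in the list, since its product expels organic cations in exchange for protons and is known from the bile canaliculus and the kidney tubule.

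All 9 tested probes, from 8 of the 9 genes, were lower in furan livers than in control livers, and none was higher (limma, adjusted p below 0.05). Of all tested probes, 16.9% were called lower by the same test. In each of the 9 transporter probes the 4 furan levels lay below the 4 control levels, as they did for 18% of all tested probes, with 36.4% free of overlap in either direction. The changes ran from -1.57 to -0.55 with a median of -1.31, and 8 of the 9 lay below -0.95, the 5th percentile of all tested probes. Slc47a1 was too dim on the array to be tested. In bulk liver RNA, fewer hepatocytes and less RNA of a gene per hepatocyte cannot be told apart.

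**Figure D1:**
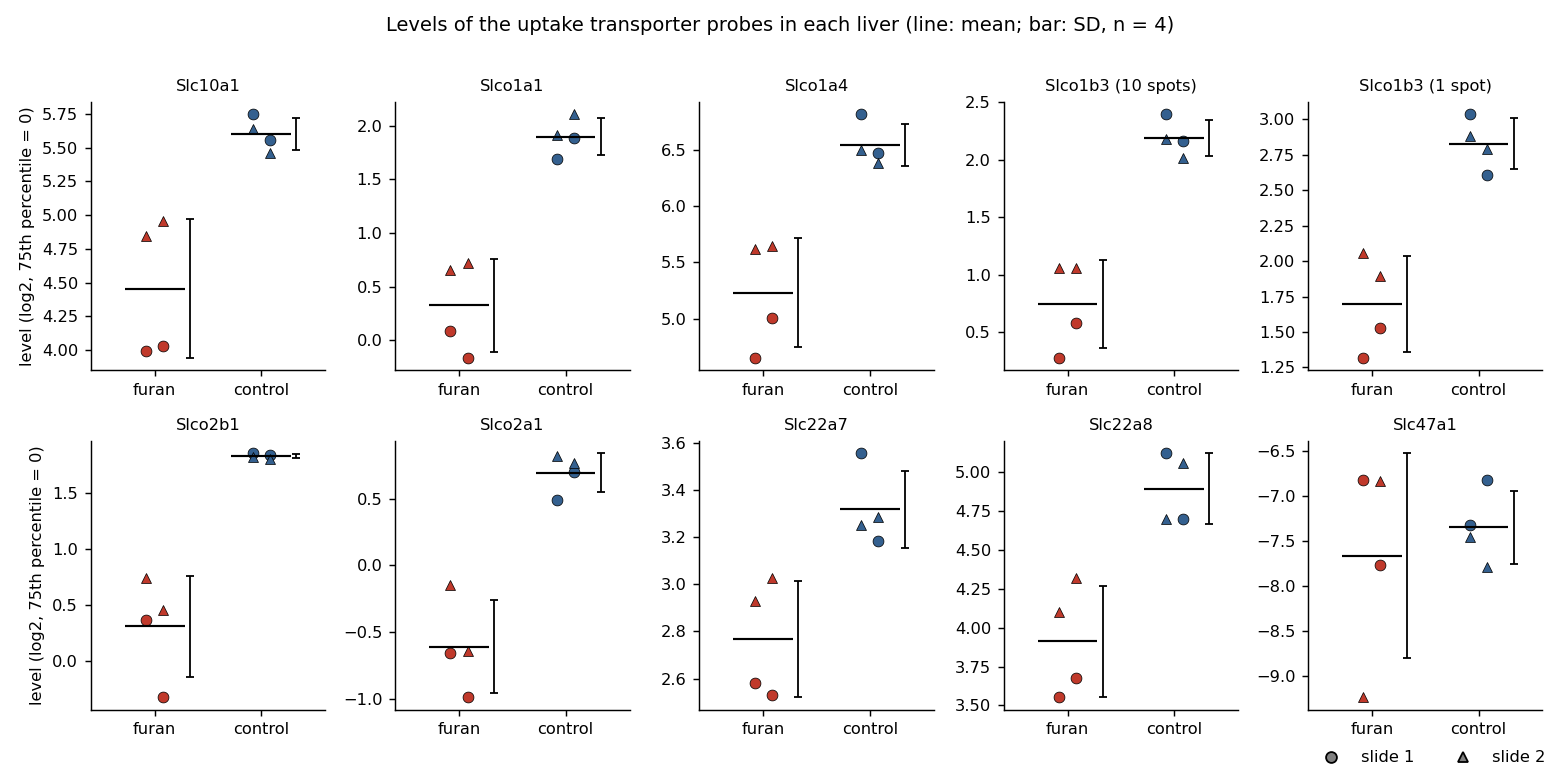
Level of each of the 10 transporter probes in every liver (y axis, log2 with the array's 75th percentile at 0; each panel has its own range), furan livers in red and control livers in blue, circles for slide 1 and triangles for slide 2; the line is the mean and the bar the SD (n = 4). In the 9 tested probes every furan liver lies below every control liver, and Slc47a1 alone overlaps.

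Slc10a1 encodes the sodium taurocholate cotransporter, the main route of conjugated bile acids from portal blood into the hepatocyte. Its probe, at chr6:104735910-104735969 on the rn4 build, had levels of 4.00, 4.03, 4.84 and 4.96 in furan livers 1 to 4 and of 5.75, 5.55, 5.63 and 5.46 in control livers 1 to 4. The groups did not overlap, and the furan livers formed a lower pair, livers 1 and 2, and a higher pair, livers 3 and 4. The mean was 4.46 ± 0.51 in furan livers and 5.60 ± 0.12 in control livers (SD, n = 4 each), a change of -1.14 with a 95% interval from -1.69 to -0.60, or 2.21-fold lower (limma, adjusted p = 0.00807). The same pairing of furan livers follows the slides: the difference between the groups was -1.64 on slide 1 and -0.65 on slide 2.

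Among the organic anion transporting polypeptides, Slco1a1 encodes Oatp1, a sinusoidal carrier of steroid sulphates and other anionic conjugates that is more abundant in male than in female rat liver. Its probe (rn4, chr4:179492687-179492746) had levels of 0.08, -0.17, 0.66 and 0.72 in furan livers and of 1.69, 1.89, 1.91 and 2.11 in control livers. The highest furan liver lay 0.96 below the lowest control liver. With means of 0.32 ± 0.44 in furan livers and 1.90 ± 0.17 in control livers (SD, n = 4 each), the change was -1.57 (95% interval -2.06 to -1.08), which made this the probe with the largest change of the 9, at 2.98-fold lower (limma, adjusted p = 0.00174).

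Slco1a4 encodes Oatp2, which carries cardiac glycosides as well as bile acids and is found in the liver and the blood-brain barrier. Levels of its probe (rn4, chr4_random:2089150-2089209, a part of chromosome 4 not placed in that build) were 4.65, 5.01, 5.62 and 5.64 in furan livers and 6.82, 6.47, 6.50 and 6.39 in control livers. Again furan livers 1 and 2 were the lowest, and no furan liver reached the lowest control. The mean fell to 5.23 ± 0.49 in furan livers, against 6.55 ± 0.19 in control livers (SD, n = 4 each), a change of -1.32 (95% interval -1.85 to -0.78) or 2.49-fold lower (limma, adjusted p = 0.00456).

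Slco1b3, listed in rat as Slco1b2 and encoding Oatp4, is the rodent counterpart of the liver-specific carriers that clear bilirubin and statins from blood in humans. It was measured at 2 places. The first probe, with 10 spots per array (rn4, chr4:179118256-179118315), had levels of 0.27, 0.58, 1.05 and 1.06 in furan livers and of 2.40, 2.17, 2.18 and 2.01 in control livers. The second, with 1 spot per array, had levels of 1.32, 1.53, 2.06 and 1.89 in furan livers and of 3.04, 2.61, 2.88 and 2.79 in control livers. Neither probe showed an overlap between the groups. The change was -1.45 (95% interval -1.89 to -1.01, adjusted p = 0.00167) at the first probe and -1.13 (95% interval -1.55 to -0.71, adjusted p = 0.0031) at the second (limma), so the intervals of the 2 probes overlap. Group means were 0.74 ± 0.38 in furan livers and 2.19 ± 0.16 in control livers at the first probe, and 1.70 ± 0.34 in furan livers and 2.83 ± 0.18 in control livers at the second (SD, n = 4 each).

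A pair of probe sequences shows what these values rest on. The single-spot probe of Slco1b3 is printed because its rn4 coordinates, chr4:179110787-179117464, span far more than its 60 bases, which places it across an intron, so that it matches spliced transcripts. The probe of Slc22a7 (rn4, chr9:9939078-9939137) is printed because that gene has the least stable result of the list. Both are given as in the array annotation, all in lower case since no base is singled out, and exon or UTR positions on rn4 were not analysed here.
Slco1b3 probe: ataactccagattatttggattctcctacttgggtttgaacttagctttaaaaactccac
Slc22a7 probe: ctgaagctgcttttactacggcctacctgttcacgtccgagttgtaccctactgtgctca
Set against the array's own probes of other genes, the 10 transporter probes shared at most 33 of 60 aligned bases with the closest one, and whole transcripts were not searched.

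Slco2b1 encodes a carrier of sulphated steroids and bromosulphophthalein. Its probe (rn4, chr1:156993236-156993295) stood at 0.37, -0.32, 0.74 and 0.46 in furan livers and at 1.85, 1.84, 1.83 and 1.81 in control livers. The control livers were nearly identical, with an SD of 0.02, and furan liver 2 was the lowest of the 8. The mean was 0.31 ± 0.45 in furan livers and 1.83 ± 0.02 in control livers (SD, n = 4 each), a change of -1.52 (95% interval -1.99 to -1.04) or 2.87-fold lower (limma, adjusted p = 0.00176).

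Slco2a1, the prostaglandin transporter, removes prostaglandins from the extracellular space before they are broken down. At its probe (rn4, chr8:108098202-108098261) the levels were -0.66, -0.99, -0.15 and -0.64 in furan livers and 0.49, 0.70, 0.82 and 0.77 in control livers. Each furan liver lay below the 75th percentile of its array and each control liver above it. The change was -1.31 (95% interval -1.71 to -0.90), or 2.47-fold lower, with means of -0.61 ± 0.35 in furan livers and 0.70 ± 0.14 in control livers (SD, n = 4 each; limma, adjusted p = 0.00176). It also differed least between the slides, with -1.42 on slide 1 and -1.19 on slide 2.

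Slc22a8 encodes Oat3, an exchanger of organic anions best known from the kidney and also present in rat liver. Its probe (rn4, chr1:211287537-211287596) had levels of 3.55, 3.67, 4.10 and 4.32 in furan livers and of 5.12, 4.70, 4.70 and 5.05 in control livers, without overlap. The mean was 3.91 ± 0.36 in furan livers and 4.89 ± 0.23 in control livers (SD, n = 4 each), a change of -0.98 (95% interval -1.43 to -0.53) or 1.97-fold lower (limma, adjusted p = 0.00699).

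Slc22a7 encodes Oat2, which carries cyclic nucleotides, prostaglandins and urate. Its probe had levels of 2.58, 2.53, 2.93 and 3.03 in furan livers and of 3.56, 3.18, 3.25 and 3.29 in control livers. The groups came close to each other: furan liver 4 lay 0.16 below control liver 2. The mean was 2.77 ± 0.25 in furan livers and 3.32 ± 0.16 in control livers (SD, n = 4 each), a change of -0.55 (95% interval -0.89 to -0.21) or 1.46-fold lower (limma, adjusted p = 0.0236). The call ended in 10 of 24 other settings, among them leaving out furan 2 (limma, adjusted p = 0.0656), control 1 (0.0584) or control 4 (0.0513), and without scaling between arrays the change was 0.04.

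Slc47a1 gave almost no signal. Its probe (rn4, chr10:47514303-47514362) was well above background on 3 of 4 furan arrays and 3 of 4 control arrays, with processed signals between 2.6 and 13.2 intensity units. Levels were -6.82, -7.77, -9.23 and -6.83 in furan livers and -7.32, -6.82, -7.45 and -7.79 in control livers, which overlap. The gene was therefore not tested, and at this signal a difference was not detectable.

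**Figure D2:**
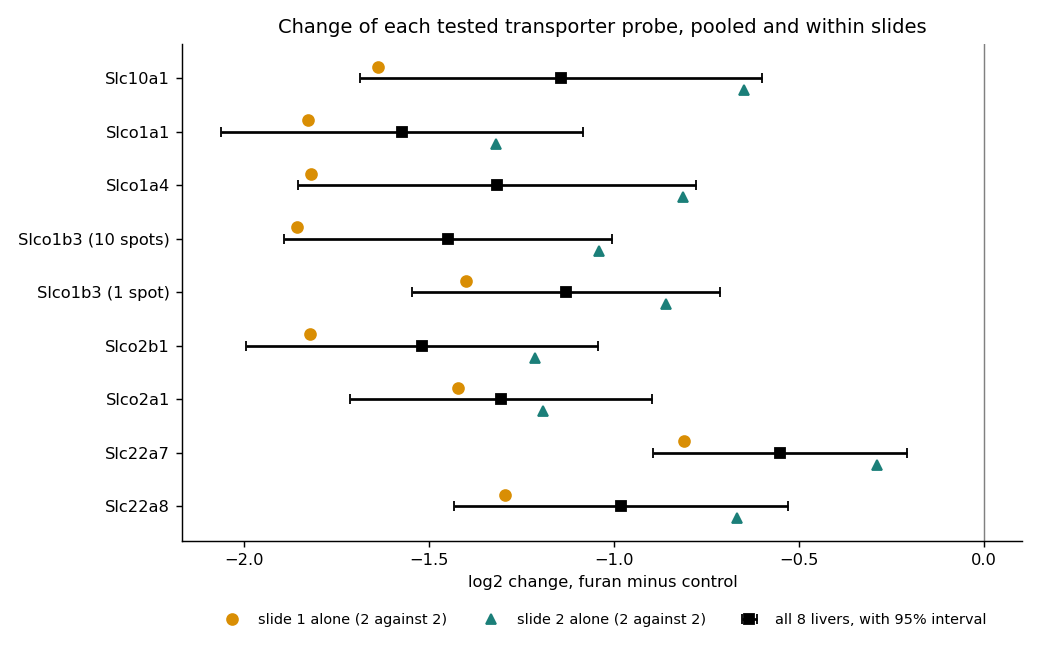
Log2 change (furan minus control, x axis) of each of the 9 tested transporter probes: black squares give all 8 livers with the 95% interval, orange circles slide 1 alone and green triangles slide 2 alone. All values lie below 0, as they must on each slide where every furan level lies below every control level. For each probe the change on slide 1 is the larger one.

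In all 9 tested probes the 2 lowest furan levels were those of furan livers 1 and 2, both on slide 1, although for Slco2a1 livers 1 and 4 were nearly level. Within slide 1 the differences between the groups ran from -1.86 for the first Slco1b3 probe to -0.81 for Slc22a7, and within slide 2 from -1.32 for Slco1a1 to -0.29 for Slc22a7. With slide as a block in the fit all 9 probes were called lower. The difference in change between slides was 1.01 for Slco1a4, 0.99 for Slc10a1 and 0.82 for the first Slco1b3 probe, with unadjusted p = 0.00913, 0.00314 and 0.0147 in limma's interaction test. None of the 20268 probes passed that test after adjustment, 1236 had an unadjusted p below 0.05, and the members had adjusted p values between 0.806 and 0.915. The median level of the hepatocyte marker probes was also lowest in furan livers 1 and 2, at 7.42 and 7.44, against 7.57 and 7.69 in furan livers 3 and 4. Whether cell content or the noisier replicate spots of furan 1 played a part in the slide difference was not tested.

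The scaling between arrays sets the size of every change, because the furan arrays were brighter. With no scaling, an alternative chosen after the data were seen, the median change of all tested probes was 0.56. On that scale Slco1a1 had a change of -0.98, Slco2b1 -0.93, the Slco1b3 probes -0.86 and -0.54, Slco1a4 -0.72, Slco2a1 -0.71 and Slc10a1 -0.55, and these 7 probes were called lower. Slc22a8 (-0.39, adjusted p = 0.0626) and Slc22a7 (0.04, adjusted p = 0.779) were not called (limma). In intensity units, the unscaled Slc22a7 signal was 8905, 9228, 11109 and 10240 in furan livers and 9733, 8847, 10061 and 9593 in control livers. For Slc22a7 the direction therefore depends on the scaling, while the other 8 tested probes had negative changes under each of the 6 scalings.

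**Figure D3:**
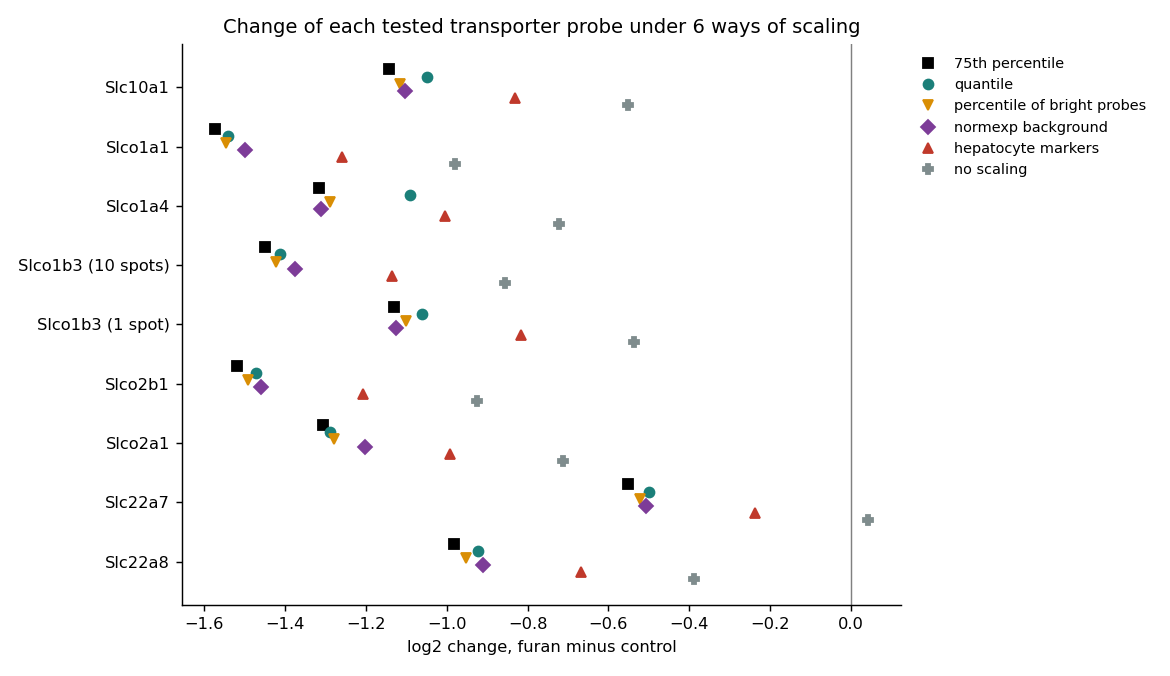
Log2 change (furan minus control, x axis) of the 9 tested transporter probes under 6 ways of making the arrays comparable, 1 marker for each. Quantile normalization, the percentile of bright probes and normexp lie close to the 75th percentile, scaling to the hepatocyte markers gives smaller falls, and with no scaling Slc22a7 alone reaches 0.

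Hepatocyte markers were also lower with the main scaling. Of its 12 probes 9 fell, 1 rose and 2 were not called, with a median change of -0.64, while 3 fell and 2 rose with quantile normalization, and 1 fell and 2 rose without scaling. The summed level ran from 10.68 to 11 in furan livers and from 11.24 to 11.48 in control livers on the log2 scale. The largest fall was in 1 of the 2 probes of Ahsg, a secreted plasma protein, at -1.20, and Apoa1, the apolipoprotein of high density lipoprotein, was the probe that rose, at 0.72. Levels were also taken relative to the median level of the 12 marker probes on each array, again chosen after the data were seen. That median level ran from 7.42 to 7.69 in furan livers and from 7.77 to 7.99 in control livers. It fell by less than the median change of -0.64, so this scaling removes only a part of the marker change. On that scale 8 of the 9 transporter probes were called lower, with changes from -1.26 for Slco1a1 to -0.67 for Slc22a8. Slc22a7 was then at -0.24 (limma, adjusted p = 0.203).

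Markers of other liver cells were read from the same fit. Of 12 tested cholangiocyte probes 4 rose, 8 were not called and none fell, with 2 rises without control 1 or without the filter on dim probes. Epcam, an adhesion molecule of bile duct cells, rose by 1.79, and the summed level of the list ran from 2.7 to 4.0 in furan livers and from 1.5 to 3.1 in control livers, so the groups overlapped. Of the 2 probes each for Cftr and Sox9, 1 was not well above background on all arrays of either group. Of 13 stellate cell and fibroblast probes 2 rose, and only 1 did when any of furan 1, 2 or 3 or control 1, 2 or 4 was left out. A probe of Lrat, 1 of these 2, was well above background on 4 furan arrays and 1 control array. Of 15 endothelial probes 1 fell, against 7 without control 1, 2 without furan 4 and 4 with normexp. None of 13 macrophage and 11 lymphocyte probes was called by limma, with 1 and 0 of them at an unadjusted p below 0.05, but 2 lymphocyte probes were lower without control 1, and 1 macrophage and 4 lymphocyte probes were lower with normexp. Summed levels overlapped between furan and control livers in each of these 4 lists. The part that these cell types played in the transporter values was not tested.

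Relatives of the members allow a comparison within each family. Of the 6 tested probes for the remaining Slco genes, 3 were called lower, none was called higher and 3 passed in neither direction, with a median change of -0.49. Slco1a5, another Oatp of the same subfamily, fell by 1.29 with a mean of -1.78 ± 0.43 in furan livers and -0.49 ± 0.12 in control livers (SD, n = 4 each; limma, adjusted p = 0.00301). The Slco1 genes lie side by side on rat chromosome 4. In the order of their rn4 coordinates the array held probes for Slco1c1, Slco1b2 (Slco1b3 here), Slco1a1, Slco1a3, Slco1a6 and Slco1a5, with Slco1a4 on the unplaced part. Slco1a6 fell by 0.90 (limma, adjusted p = 0.00629). Slco1c1 and both probes of Slco1a3 were not well above background on all arrays of either group. The 5 genes of this cluster that gave a signal were all lower in furan livers, and they include the members Slco1b3, Slco1a1 and Slco1a4. Of all tested probes, 16.9% were called lower. Cross-hybridisation between these related transcripts was not tested.

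The remaining Slc22 carriers were mixed. Of 14 tested probes, 4 fell, 2 rose and 8 were not called, with a median change of -0.0032, and without scaling between arrays 1 fell and 8 rose. Slc22a17, a receptor for lipocalin, fell by 1.28. Slc22a24 was higher by 2.26, but it was well above background on 4 furan arrays and only 1 control array. Of the 5 tested probes for the remaining Slc10, Slc47 and Slc51 genes, Slc10a3 alone was called, with a change of -0.46, and none was called lower when furan 2 or 4 or control 2, 3 or 4 was left out, or with the percentile of bright probes.

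Carriers of nutrients, nucleosides and fatty acids were lower in part. Of 30 tested probes, 14 fell, 1 rose and 15 were not called, with a median change of -0.43, and without scaling between arrays 5 fell and 8 rose. The largest fall was that of Slc27a5, whose product activates bile acids before their conjugation, with means of 6.37 ± 0.45 in furan livers and 8.06 ± 0.19 in control livers (SD, n = 4 each; limma, adjusted p = 0.00158). The probe that rose was that of the sodium phosphate carrier Slc17a1, at 0.54, and 2 rose without furan 1. Slc2a2, the glucose carrier of the sinusoidal membrane, named here after its values were seen, had a change of 0.41 (adjusted p = 0.0831) and was not called.

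Export pumps went the other way more often. Of 13 tested probes 8 rose, 3 fell and 2 were not called, with a median change of 0.93. Rises outnumbered falls under each of the 6 scalings. The largest rise was in a probe of Abcb1b, a multidrug exporter, with means of 3.88 ± 0.64 in furan livers and -0.80 ± 0.53 in control livers (SD, n = 4 each; limma, adjusted p = 0.000238). A further Abcb1b probe rose by 0.90, so the 2 probes of this gene disagree about the size. Abcc3, which pumps conjugates back into blood, rose by 3.53 and was well above background on 4 furan and 3 control arrays. Abcc6 had the largest fall of the list, -1.26, and the bile salt export pump Abcb11, which moves the bile acids taken up through Slc10a1 on into bile, fell by 0.99. Abcc3 and Abcb11 were picked out after their values were seen. That uptake and export genes differ as groups was not tested, since the lists are described by counts only.

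**Figure D4:**
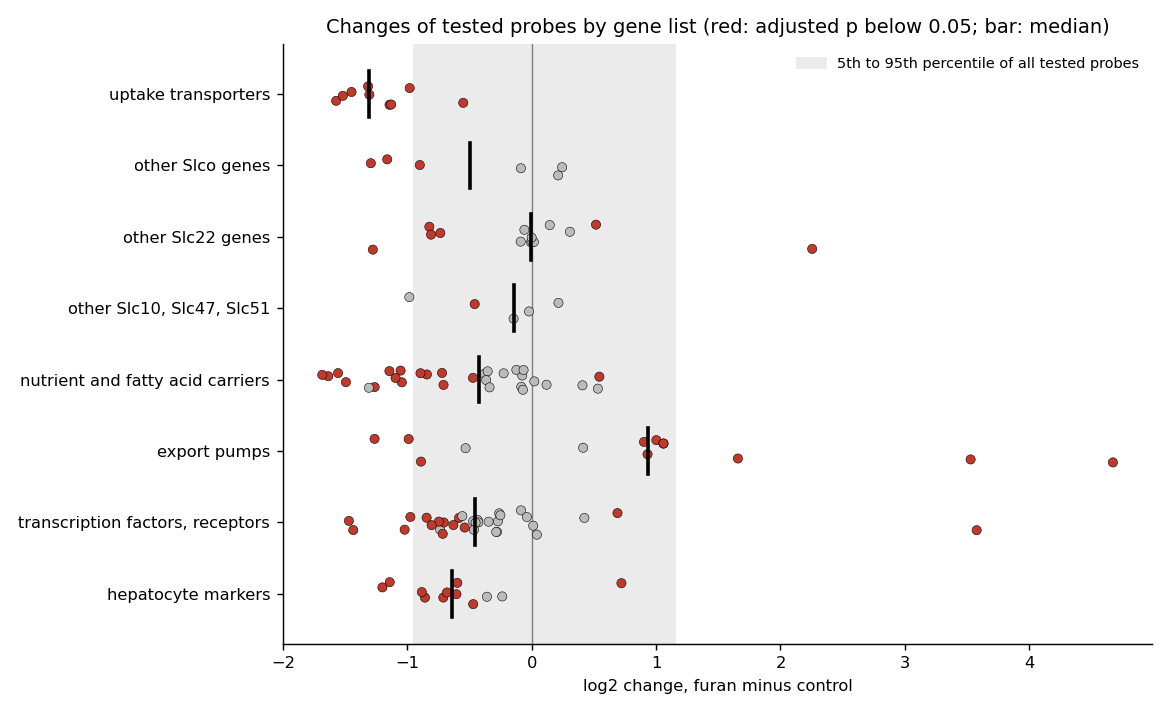
Log2 change (furan minus control, x axis) of every tested probe in the transporter list and in 7 related lists (y axis), red where adjusted p was below 0.05, with a black bar at the median; the grey band holds the middle of all tested probes, from -0.95 to 1.15. The median is -1.31 for the uptake transporters and 0.93 for the export pumps.

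Transcription factors and receptors that are known to act on these genes were read from the same fit. Of 32 tested probes, 12 fell, 2 rose and 18 were not called, with a median change of -0.46, and without scaling between arrays 3 fell and 4 rose. Prlr, the prolactin receptor, had the largest rise, 3.58 (limma, adjusted p = 0.0189), though it was well above background on only 2 of 4 control arrays. Without control 4, 1 probe of the list rose in place of 2. Hnf4a, a liver-enriched factor needed for many hepatocyte genes that was picked out after its values were seen, fell by 0.98 (adjusted p = 0.00755). Nr1h4, the bile acid receptor, had changes of -0.26 and -0.47 at its 2 probes and was not called. Nr0b2, a repressor that the bile acid receptor induces, had a change of -0.04 with an interval from -1.11 to 1.04.

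Promoters of 8 members were available from RefSeq (GRCr8 build), as 250 bases before to 50 bases after the start of each gene, and Slc47a1 is named only. Each was searched on both strands for 5 short motifs. The letters GTTAAT were in 3 of 8 member promoters and in 7.45% of all 33469 promoters of the same length. AGGTCA, a nuclear receptor element, was in 2 of 8 against 16.2% of all, TTCNNNGAA, a STAT site, in 2 of 8 against 8.87%, TATAAA in 2 of 8 against 14.2%, and TGACNNNGC, the core of the antioxidant response element, in 0 of 8 against 12.1%. A match is a description of the letters and not of binding. The 3 stretches with GTTAAT are shown because that motif had the highest count among the members, with its letters in capitals, 5′ to 3′ on the strand of the gene.
Slco1b3 (Slco1b2), chr4:176282501-176282546, plus strand: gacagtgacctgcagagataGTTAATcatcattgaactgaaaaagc
Slc10a1, chr6:106357945-106357984, minus strand: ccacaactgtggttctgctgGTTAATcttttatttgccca
Slc22a8, chr1:214927171-214927216, plus strand: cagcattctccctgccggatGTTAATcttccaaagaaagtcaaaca
The match began 63 bases before the start of Slco1b3, 20 before that of Slc10a1 and 93 before that of Slc22a8. The changes of these 3 genes, from -1.45 to -0.98, lay within the range of the members without a match.

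For each tested member probe the most similar named genes were taken by Pearson's r of levels over the 8 arrays, which includes the difference between the groups that all of them share. The closest were As3mt and Lcn12 for Slco1a1, Ogfod2 and Mup5 for Slco1a4, Tut7 and LOC100911718 for the first Slco1b3 probe, and Atl2 and Slco1a5 for the second. Lrpap1 and Tfr2 were closest to Slco2b1, Fads6 and Ppp6r1 to Slco2a1, Etfdh and Spp2 to Slc10a1, Tmem179b and Pxmp2 to Slc22a8, and Upb1 and Baat to Slc22a7. The values of r ran from 0.990 for Baat to 0.997 for Atl2, as a description of 8 arrays. Each of these genes was lower in furan livers, with changes from -1.57 for LOC100911718 to -0.42 for Ogfod2 and Tmem179b.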

How the data were processed

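RNA of 8 livers was measured, 4 furan and 4 control, with groups taken from the sample labels. The deposited scanner files hold background-subtracted processed signals as fluorescence intensity, made by the authors with Agilent Feature Extraction 10.7, per the submitters' processing notes and the file headers. The deposited series table holds the same intensity values scaled to a common 75th percentile on each array, and it was used as an alternative. Since it differs only by a constant factor on each array, it returns the main result and is no separate check of the changes. From 62976 spots, 58717 were not controls and carried 30367 probes, and no spot was saturated. Spots marked non-uniform or outlier were left out, and the rest of a probe averaged on the log2 scale after subtracting the array's log2 75th percentile. For 170 probes no usable spot was left on at least 1 array. A probe was tested where at least a share of 0.5 of its usable spots exceeded background clearly, by the scanner software's flag, in each of the 4 arrays of 1 group or both, which gave 20268. The difference between the groups was fitted in R 4.3.3 with limma 3.58.1 (lmFit, then eBayes with no trend, two-sided), Benjamini-Hochberg adjusted over every tested probe and called at 0.05. The fit was tested on simulated data. The number of arrays limits the precision, and scanner signals give no counting depth. Tables and figures were made with pandas 2.3.3, numpy 2.4.6 and matplotlib 3.10.9.

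The members, the related gene lists, the markers and the motifs were chosen with earlier results of these data known. Named genes are all members, the largest called rise and fall of each related list (or the probe with the smallest p), and the 2 genes most like each member probe. Some genes that the rule takes are not reported here. Other genes are said to be picked after their values were seen. Probes were named through RefSeq transcripts and symbols, and coordinates are those of the array annotation (rn4). Slides were read from the file headers. The replicate numbers were not treated as pairs of animals, since the labels state no pairing. The deviations of same-numbered arrays correlated at -0.30, 0.11, 0.28 and 0.04, which cannot decide whether animals were paired. Alternatives covered background correction, scaling, filters, slide, variance trend and left-out arrays.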

Additional observations from a re-analysis of the deposited data

Results flagged for a closer look

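In 78 groups of 4 levels, those of the transporter probes and of the other genes named with a value, 5 held a liver far from the other 3, by Dixon's 95% criterion for the gap to the nearest neighbour. Chance flags about 1 group in 20, and the endothelial genes among them were picked out after their values were seen. None of the 5 was in a transporter probe. In control liver 1 the level of Lyve1 was -3.51, with -0.08 to 0.32 in the other control livers, that of Stab2 was -3.21, with -0.71 to -0.31, and that of Kdr was 2.29, with 4.04 to 4.24. Slc22a17 was at 2.55 in control liver 4, with 2.31 to 2.35 in the others. Abcc3 was at -3.02 in furan liver 1, with -3.50 to -3.43 in the others.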

How the results depend on the processing

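The 8 tested probes other than Slc22a7 kept a negative change in each other setting run for them (24, or 23 for the first Slco1b3 probe, which the setting with the brightest probe per gene leaves out), and each was called lower in 21 to 23. Many of these settings could not have turned the sign. Those on which probes are tested, blocks, variance trend and the series table leave the change as it was. Keeping marked spots moved it little, from -1.4492 to -1.4583 for the first Slco1b3 probe and from -1.1437 to -1.1383 for Slc10a1. As the groups do not overlap, leaving out arrays or taking 1 slide alone must also give a negative change. Slide 1 alone called 115 probes higher, 35 lower and 0 of the 9 members (limma), all 9 with an unadjusted p below 0.05, and slide 2 alone 749, 513 and 4, each with 2 arrays a group, so fewer samples enter. Normexp gave 7102 lower probes, a median change of all probes of -0.19 and all 9 members lower. Without the filter on dim probes that median was -0.12. Of the alternatives chosen after the data were seen, no scaling gave 10405 probes higher and 584 lower, with 7 members lower, and scaling to the hepatocyte markers 6424, 1270 and 8 with a median of 0.28. Leaving out 1 replicate at a time gave 2479 to 3363 probes higher, 2213 to 3386 lower (2213 without furan replicate 2) and 8 or 9 members lower. The cause of these shifts was not tested. Slc22a7 reversed without scaling (0.0421). With the replicate block, a pairing that the labels do not state, 2638 probes were higher, 2472 lower and 8 members lower. Slc22a7 then had an adjusted p of 0.059 (limma). Its call also ended without the dim filter (0.0543), without furan 1 and control 2 together (0.0645), on each slide alone (0.126 and 0.259) and in the settings named above. Slc22a8 lost its call without scaling and on each slide.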

Other observations

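Krt19, a keratin of bile duct cells, had a level of 0.71 in furan liver 1 and 0.32 in control liver 2, the 2 arrays with the widest scatter between replicate spots. The other furan livers had -1.72, -3.62 and -3.52, and the other control livers -3.76, -3.28 and -4.33. Furan liver 1 and control liver 2 were also the highest of their groups for Spp1 (1.03 and 0.85) and Dcn (0.65 and 0.91). These duct and fibroblast markers were picked out after their values were seen. Not all did so: for the tested Sox9 probe control liver 2 (-3.53) lay below control livers 3 and 4 (-3.42 and -3.40). Whether cell content or spot scatter lay behind these levels in furan liver 1 and control liver 2 was not tested. Over all tested probes the deviations of these 2 arrays from their group means correlated at 0.52, which is a description across probes. Without both arrays 8 of the 9 transporter probes were called lower, all but Slc22a7.

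The precision is limited by 4 animals a group on 2 slides. Transcript levels are relative to the array's own signal, protein and transport were not measured, Slc47a1 was near background, and probe specificity was compared only with the other probes of the array.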
